A study of Homo sapiens with 2 samples.

Results

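The regions described here are the 370 H3K27ac peaks that lay wholly between positions 134690442 and 151406771 of chromosome 5 (hg19), a segment of 16.7 Mb that runs from the distal part of 5q31.1 through 5q31.2, 5q31.3 and 5q32 into the proximal part of 5q33.1. They were 370 of the 52203 peaks of the series, and 370 of the 2390 on chromosome 5. The data came from LOUCY, an established human line of T-cell acute lymphoblastic leukaemia (T-ALL), grown in standard medium with serum and with no treatment named in the labels. The series compared 1 library of chromatin precipitated with an antibody against H3K27ac with 1 library of input DNA, the same kind of sheared chromatin without precipitation. There were no replicates, so each value describes this pair of libraries and no test across samples was possible. The borders of the segment were chosen from measured values. They are the places on 5q where the implied input level, a control coverage that fits both the fold and the p-value of a peak, changed. Level, fold, density and width all come from the same calls, and are therefore given as description without a test. The authors' peak list names no genes, and no hg19 gene annotation or sequence was used here, so loci are given by coordinate and cytogenetic band, and no sequence is shown.

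Acetylation of histone H3 at lysine 27 is laid down by the acetyltransferases p300 and CBP and marks promoters and enhancers in use. Narrow peaks are typical of single promoters or enhancers, while long acetylated stretches are common over highly used genes and over clusters of enhancers, often called super-enhancers. As background from cytogenetic maps, 5q31.1 holds SMAD5, a signal transducer of bone morphogenetic proteins, and the chemokine gene CXCL14. Band 5q31.2 holds EGR1, an immediate early transcription factor, HSPA9, a mitochondrial chaperone, CTNNA1, an adherens junction protein, and the RNA-binding protein gene MATR3. Band 5q31.3 holds NR3C1, the glucocorticoid receptor through which steroids act on lymphoblasts, HDAC3, a histone deacetylase, the monocyte receptor gene CD14 and the clustered protocadherin genes, cell-surface proteins best known from neurons. Band 5q32 holds CSNK1A1, a kinase of the WNT pathway, the receptor tyrosine kinase genes CSF1R and PDGFRB, and the SPINK family of protease inhibitors. It also holds CD74, the chaperone of MHC class II. Band 5q33.1 holds RPS14, a ribosomal protein, TNIP1, a damper of NF-kB signalling, ANXA6, a membrane-binding annexin, and SPARC, a matrix protein. RPS14 and CSNK1A1 are widely studied in myelodysplastic syndromes of 5q. The peaks below were not assigned to any of these genes.

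The segment was rich in peaks whose median width and fold lay near those of the whole list. They numbered 22.1 per Mb and covered 1.11 Mb, or 6.64% of the segment's sequence. The window of the same length on the centromeric side had 234 peaks, 14.0 per Mb, covering 4.18%, and the one on the telomeric side had 148 peaks, 8.85 per Mb, covering 2.43%. Over all chromosomes the density was 17.2 per Mb with 4.90% covered, and over chromosome 5 outside the segment it was 12.3 per Mb with 3.48% covered. The segment was thus 1.94 times as dense as its side windows together and 1.80 times as dense as the rest of chromosome 5. Against all chromosomes the ratio was 1.29. The side windows lie beyond borders set by a change in implied input level, and the part of that level in the density ratio was not tested. Among whole chromosomes its density lay between that of chromosome 1 (20.6 per Mb) and that of chromosome 20 (23.02 per Mb). The telomeric window opens with 2004 kb that hold no peak, and with side windows begun at the nearest peak the density ratio was 1.77.

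The median member was 1539 bp wide (95% order-statistic interval 1354 to 1777, interquartile range 733.5 to 3297), against 1665 bp in the centromeric window, 1920.5 bp in the telomeric window and 1670 bp over all peaks. Its median fold over input was 3.05 (95% interval 2.86 to 3.35, interquartile range 2.45 to 5.65). The median fold was 3.26 in the centromeric window, 3.71 in the telomeric window and 3.08 over all peaks. These intervals describe the spread over peaks of 1 library and are not replicate error. For both measures the interval of the segment overlapped that of each side window. Width and fold rose together across the members (Spearman's rho 0.724, over 370 peaks that share both libraries), as they did across all peaks (0.741), and both values come from the same calls.

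**Figure D1:**
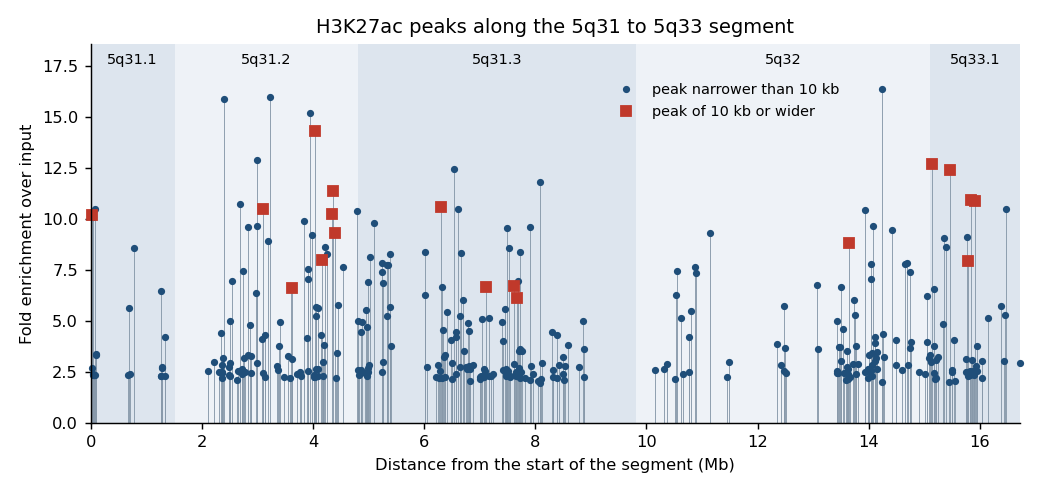
Each point is 1 of the 370 peaks, placed by its distance in Mb from the start of the segment (horizontal axis) and its fold enrichment over input (vertical axis). Red squares are the 18 peaks of 10 kb or wider, and shading marks the bands. Peaks gather in clusters parted by long empty stretches, of which the longest, 1.28 Mb, runs from 5q31.3 into 5q32.

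Weak peaks were the most numerous class. Of the 370 members, 181 had a fold below 3, or 48.9% (exact 95% binomial interval 43.7 to 54.1), where the share over all peaks was 48.2%. Members with a -log10 q of at least 10 numbered 133, or 35.9% (31.1 to 41.1), against 36.8% of all peaks. A fold of at least 10 was reached by 24 members, or 6.49% (4.20 to 9.50), against 5.21% of all peaks, and a width of at least 10 kb by 18, or 4.86% (2.91 to 7.58), against 4.37%. Both limits were met by 10 members, 2.70% of them, against 1.09% of all peaks. In sequence the strong peaks weighed more. The 24 members with a fold of at least 10 were 6793.5 bp wide at the median. They made up 25.9% of the sequence under members, whereas peaks of such fold made up 13.7% of it in the whole list and 12.8% in the side windows. The share was higher still, 29.1%, over all of chromosome 5 beyond the telomeric border, where 11.2% of peaks reached that fold.

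Band 5q32 was the sparsest of the whole bands in the segment. The 5.3 Mb of 5q32 held 87 peaks, 16.4 per Mb, covering 4.21% of it. The 5.0 Mb of 5q31.3 held 131 peaks, 26.2 per Mb, with the lowest median fold of the whole bands (2.82), covering 6.53%. The 3.3 Mb of 5q31.2 held 86 peaks, 26.1 per Mb, with a median fold of 3.38, covering 9.16%. Of the bands that the segment only enters, the 1.51 Mb of 5q31.1 held 22 peaks, 14.6 per Mb, and the 1.61 Mb of 5q33.1 held 44, 27.4 per Mb, covering 10.9%. Strong peaks were spread unevenly over them. A fold of at least 10 was reached by 10 of 86 peaks in 5q31.2, 5 of 44 in 5q33.1 and 3 of 22 in 5q31.1. In 5q31.3 it was reached by 4 of 131 and in 5q32 by 2 of 87. Relative to their peaks, 5q31.1, 5q31.2 and 5q33.1 thus lay close together, above 5q31.3 and 5q32. Over the segment it was 24 of 370, or 6.49%, against 5.21% of all peaks.

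Peak density was also compared within classes of Giemsa staining, which tracks base composition and gene density. Giemsa-negative sequence of the segment had 24.3 peaks per Mb, against 15.01 in Giemsa-negative sequence elsewhere on chromosome 5 and 23.3 over all chromosomes. The 5q31.2 band, of the lightest stained class, had 26.1 per Mb against 12.3 in that class elsewhere on chromosome 5 and 24.7 over all chromosomes. The 5q32 band, of a darkly stained class (gpos75), had 16.4 per Mb against 10.8 elsewhere on the chromosome and 13.2 over all. Within each class the segment was denser than the rest of chromosome 5. In 5q32 it also lay further above the value over all chromosomes than the rest of chromosome 5 lay below it.

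Along the segment the 16 full bins of 1 Mb held between 0 and 47 peaks, with a median of 23.5. The fullest bin, from 141690442 to 142690441 in 5q31.3, held 47 peaks with a median fold of 2.55, so most of them were weak. The next were 149690442 to 150690441, at the border of 5q32 and 5q33.1, with 41 peaks covering 16.9% of the bin, and 138690442 to 139690441, at the border of 5q31.2 and 5q31.3, with 40 peaks covering 17.9%. The bin from 139690442 to 140690441 had 14 peaks, yet the highest median fold of all bins, 7.14. That bin thus held few peaks of high median fold, where the fullest bin had many weak ones. None of its peaks reached a fold of 10 (highest 9.81).

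The 3 longest stretches without a peak inside the segment were 1.28 Mb from 143571751 to 144850903 (5q31.3 to 5q32), 863 kb from 146173877 to 147037096 (5q32) and 760 kb from 136038002 to 136797947 (5q31.1 to 5q31.2). There were 6 gaps over 500 kb, which together took up 27.9% of the segment. The fourth, named after its length was seen, spanned 608 kb of 5q31.3 from 140091463 to 140699880, and whether it covers the protocadherin genes of that band was not tested. The median gap between neighbouring members was 10.6 kb, against 17.8 kb and 22.7 kb in the windows beside it and 11.8 kb over all peaks. Of the members, 7 were more than 100 kb from a peak on both sides (the share over all peaks was not computed). The strongest of these, at 145825836 to 145828712 in 5q32, was 2877 bp wide with a fold of 9.33.

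Of the 10 strongest members, 5 lay in 5q31.2, and 7 were narrower than 10 kb. The first was a peak of 3855 bp in 5q32 (148928290 to 148932144) with a fold of 16.4, rank 88 of the whole list. Next came 3 peaks of 5q31.2 with almost the same values. They were at 137909530 to 137912647 (3118 bp, fold 15.995, rank 106), 137086485 to 137092555 (6071 bp, fold 15.9, rank 107) and 138628732 to 138632086 (3355 bp, fold 15.2, rank 155). The peak at 137909530 had the highest -log10 p of the segment, 124, so the order of the first 2 depends on the measure. With 1 library, neighbouring ranks have no error and cannot be told apart. The fifth, at 138716951 to 138730071 in 5q31.2, was wide as well, 13121 bp with a fold of 14.3.

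The remaining 5 of the strongest 10 had folds from 11.8 to 12.9. They were at 137672497 to 137676521 in 5q31.2 (fold 12.9), 149826864 to 149845646 in 5q33.1 (12.7), 141227923 to 141230987 in 5q31.3 (12.5), 150136911 to 150173087 in 5q33.1 (12.4) and 142779667 to 142786227 in 5q31.3 (11.8). The centromeric window held a stronger peak than any member, with a fold of 20.3. Of these 10 peaks, 4 stood alone with no other peak within 12.5 kb, and 3 were part of a large domain as defined below.

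Between the 10 widest members and the 10 strongest, 2 peaks were shared, both in 5q33.1. Width and fold rose together across the members, so this count does not make the widest a separate set. The same overlap was not computed for the whole list. The widest was 36177 bp at 150136911 to 150173087 with a fold of 12.4, and it ranked 77 by width over the whole list. Band 5q31.2 held the second, of 31765 bp with a fold of 9.31 (139061634 to 139093398), the fourth, of 28500 bp with a fold of 10.3 (139013125 to 139041624), and the eighth, of 18898 bp with a fold of 6.64 (138299597 to 138318494). Band 5q31.3 held the third, of 30527 bp with a fold of 10.6 (140976481 to 141007007), and the sixth, of 23285 bp with a fold of 6.67 (141798442 to 141821726). The fifth, of 28449 bp with a fold of 10.2 (134690442 to 134718890), is the first member of the segment. The other 3 lay in 5q33.1, with widths of 19901 bp (150519152 to 150539052, fold 10.96), 18783 bp (149826864 to 149845646, fold 12.7) and 17728 bp (150587233 to 150604960, fold 10.9). The 18 members of 10 kb or wider had folds from 6.15 to 14.3, and none was a weak peak. Among these 18, 10 also passed the fold limit of 10. Peaks past both limits were 2.70% of members, against 1.09% of all peaks.

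Peaks no more than 12.5 kb apart were then joined into domains over the whole genome, each domain was given the sum of fold times width of its peaks, and those above the point where the ranked curve reaches a slope of 1 were called large. This is the usual way to set apart long, strongly acetylated regions. It gave 170 domains wholly inside the segment, of which 12 were large, 7.06% against 5.57% of all 25510 domains. Single peaks made up 93 of the 170, or 54.7%, against 59.8% of all domains. They made up 68.9% of domains in the centromeric window and 59.3% in the telomeric window. In the side windows 7 of 132 domains (centromeric) and 4 of 91 (telomeric) were large. Per 10 Mb the segment thus had 7.18 large domains, against 4.19 and 2.39 beside it and 4.68 over all chromosomes. The 12 held 62 members, 16.8% of the 370, and 45.4% of the summed fold times width of all members. That total includes members of a large domain that crosses the centromeric border and is not among the 12. Of the summed value of the 170 domains wholly inside, the 12 held 48.3%, against 44.1% for large domains over the whole genome. Large domains held 47.7% in the centromeric window, near the share of the segment, and 24.9% in the telomeric window. The 12 spanned 49.2 kb at the median, where large domains of the whole genome spanned 54.6 kb and the other domains of the segment 3.21 kb.

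The highest domain lay in 5q31.2 at 139013125 to 139093398, ranked 46 of the genome and held 10.1% of the segment's summed value, against 5.99% for the next. It was made of 3 long peaks of 28500, 16910 and 31765 bp, with folds of 10.3, 11.4 and 9.31, parted by gaps of 1076 and 2023 bp, so that 96.1% of its 80.3 kb was peak. The next inside the segment was in 5q33.1 at 150130558 to 150196452 (65.9 kb, 4 peaks, rank 186), where the 36177 bp peak gave 97.1% of the value. The third was in 5q31.3 at 140971061 to 141031724 (60.7 kb, 5 peaks, rank 297). In both, 1 long peak was flanked by shorter and weaker ones.

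The fourth was in 5q33.1 at 149815401 to 149870415 (55.0 kb, 5 peaks, rank 492). The fifth, in 5q31.3 at 142338078 to 142447652, was built otherwise. It spanned 109.6 kb with 13 peaks, the most of any domain of the segment, none of them above a fold of 8.38, and it ranked 531. The sixth was in 5q31.2 at 138712402 to 138755832 (43.4 kb, 7 peaks, rank 628) around the peak of fold 14.3. The seventh and eighth were neighbours in 5q33.1, at 150571113 to 150635599 (64.5 kb, rank 666) and 150519152 to 150545864 (26.7 kb, rank 704). Of the 12 large domains, 4 lay in 5q31.2, 4 in 5q33.1, 3 in 5q31.3 and 1 in 5q32.

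**Figure D2:**
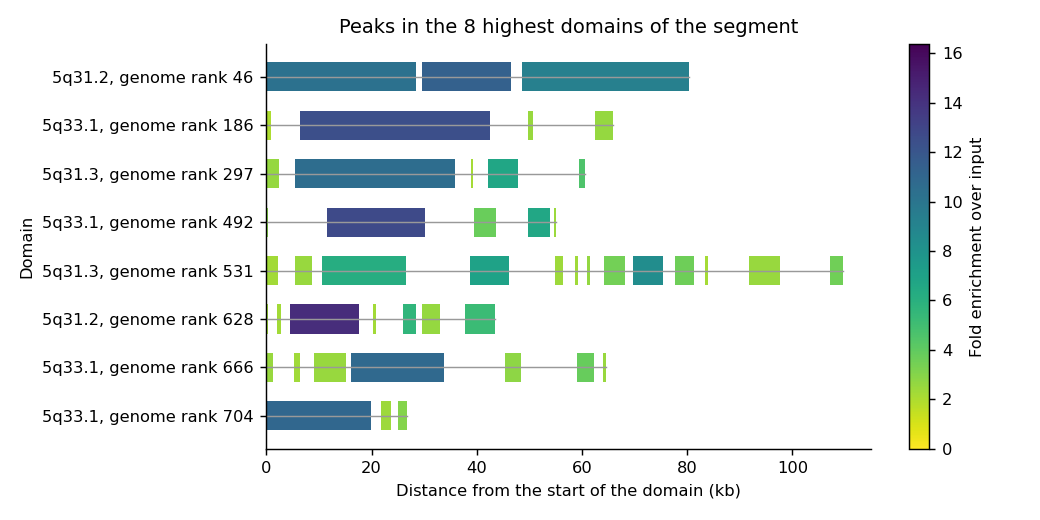
Each row is 1 of the 8 highest domains inside the segment, in order of summed fold times width. Bars are peaks placed by distance in kb from the start of the domain and coloured by fold over input, and the thin line is the span. The first domain is almost filled by 3 long peaks, while the one ranked 531 consists of 13 shorter peaks over 109.6 kb.

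Strong peaks and large domains were only partly the same loci. Of the 24 members with a fold of at least 10, 11 lay in a large domain, counting the one that crosses the border. Of the 18 members of 10 kb or wider, 14 did, and width enters the value by which domains were ranked. The matching shares over all peaks were not computed, so these counts describe the members only. The strongest member of all, in 5q32, lay in a domain of 29.9 kb with 4 peaks that ranked 2752 and was not large. The second, at 137909530, was a domain of its own that ranked 4580.

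At the centromeric border a single domain ran across the change in input level. It spanned 116 kb of 5q31.1, from 134664987 to 134781464, ranked 166 and had 17 peaks, of which 11 were members and 6 lay outside. The members gave 94.7% of its summed value. The last 2 peaks outside, at 134679798 to 134683402 and 134684326 to 134685365, had folds of 2.54 and 2.27 and implied input levels of 4.40 and 4.46. The first 2 inside, after 5076 bp without a peak, had folds of 10.2 (134690442 to 134718890) and 2.67 (134721610 to 134723517) and levels of 8.84 and 5.11. Since level rises with fold, peaks of like fold are the pair to set side by side across the border. Their levels were 4.40 outside (fold 2.54) and 5.11 inside (fold 2.67). Members of this domain with a fold below 3 had levels from 4.48 (134769491 to 134771482, fold 2.37) to 7.54 (134741222 to 134741996, fold 2.33). The lowest of these lay close to the 2 levels outside.

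At the telomeric border there was no such contact. The last 2 members, at 151149030 to 151154248 and 151405964 to 151406771, had folds of 10.5 and 2.93 and levels of 9.59 and 5.30. The first 2 peaks beyond, at 153411161 to 153411998 and 153417337 to 153419236, had folds of 2.20 and 5.59 and levels of 4.18 and 4.78. The 2004 kb between them held no peak, so the place of the change within that stretch cannot be read from the peaks.

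The implied input level is the control coverage, in fragments stacked at a position, at which the fold of a peak would have its p-value. Its median was 6.46 over 369 members (95% order-statistic interval 6.18 to 6.69), 4.74 in the centromeric window and 4.67 in the telomeric window, against 6.33 over all peaks. It was 6.21 over all of chromosome 5 before the segment and 4.69 over all of it after. The lowest level of any peak was 4.11, the caller's background. The first quartiles of the side windows, 4.30 (centromeric) and 4.26 (telomeric), lay close to that floor. The borders were set by this measure, so its contrast between segment and sides follows from the choice. In bins of 1 Mb with at least 5 peaks, the median level ran from 5.33 to 7.16 over 15 bins of the segment. Over 46 bins beside it, it ran from 4.22 to 5.30. These bins begin at -34 Mb from the start of the segment. Most of chromosome 5 before the segment, where the median over all peaks was 6.21, is thus not among them. A bin of the segment left out for its 3 peaks (145690442 to 146690441) had a median level of 4.78, within the range beside the segment. Inside the segment the level was not even. By band its median was 5.65 in 5q31.1, 6.63 in 5q31.2, 6.48 in 5q31.3, 6.53 in 5q32 and 5.60 in 5q33.1, so both end pieces were lower than the middle. One member, at 142421481 to 142421997, had a level of 28.0 and was set aside from medians of the level.

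**Figure D3:**
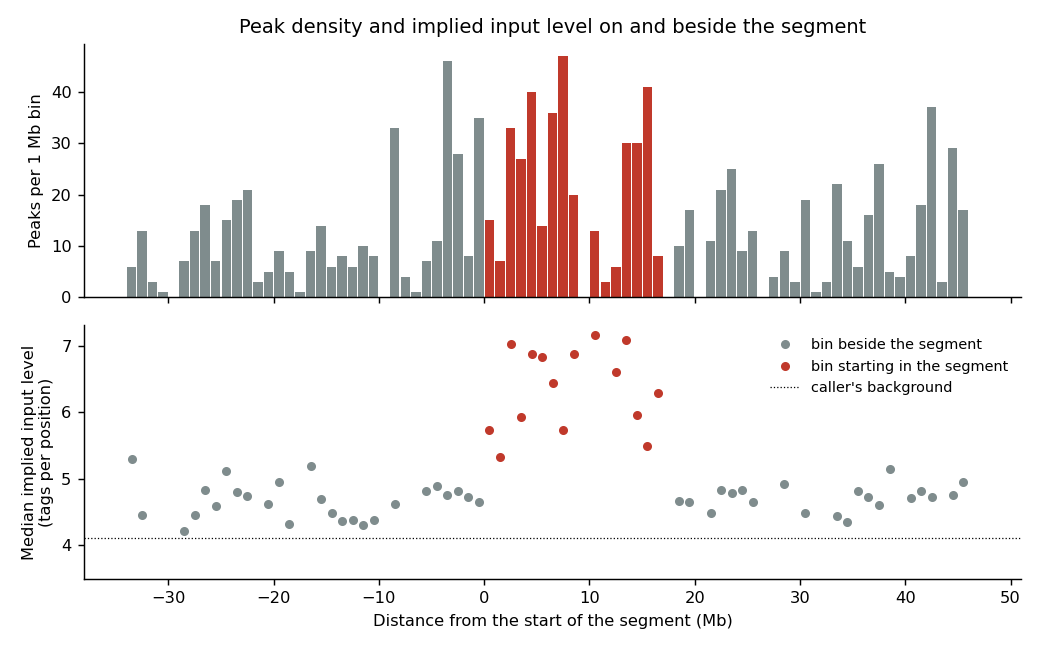
Bins of 1 Mb run from -34 Mb to the end of chromosome 5, placed by distance in Mb from the start of the segment. The upper panel gives the number of peaks per bin, and the lower panel the median implied input level (bins with at least 5 peaks). Red marks bins that start in the segment and grey those beside it. Among the bins with a level shown, those in the segment run from 5.33 to 7.16 and those beside it from 4.22 to 5.30, while peak numbers overlap.

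A ChIP pileup can be worked out from the fold and the implied level of a peak. It is built from the level that set the borders, so at a like fold a higher pileup inside the segment follows from that choice, and the values are given as description. Among peaks with a fold of at least 10, the median level was 8.09 for the 24 members and 5.08 for the 20 peaks of the side windows. The implied pileup had a median of 105 in the former and 71.9 in the latter. Among peaks with a fold from 6 to 10 the median implied pileup was 67.4 (63 members) and 47.8 (76 peaks beside), and among those below 3 it was 14.9 and 12.2. Over all members it was 22.3 (95% interval 20.1 to 24.5), against 18.3 and 19.8 in the windows beside and 22.1 over all peaks.

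The same holds for counts of peaks past a given pileup, which draw on the selecting value as well. Peaks with an implied pileup of at least 75.4, the value that marks the highest 10% of all peaks, stood at 2.63 per Mb in the segment, 0.179 per Mb in each side window and 1.71 per Mb over all chromosomes. Of the members with a level, 11.9% reached it, against 1.28% in the centromeric and 2.03% in the telomeric window. At the median of all peaks, a pileup of 22.1, the densities were 11.1 per Mb in the segment and 5.98 and 3.89 beside it. Level also rose with fold among the members (Spearman's rho 0.545 over 369 peaks, 2 measures taken from the same fold and p-value), so the level of a strong peak is not a reading of input alone. The part of the input level in the differences of density, fold and pileup was not tested.

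**Figure D4:**
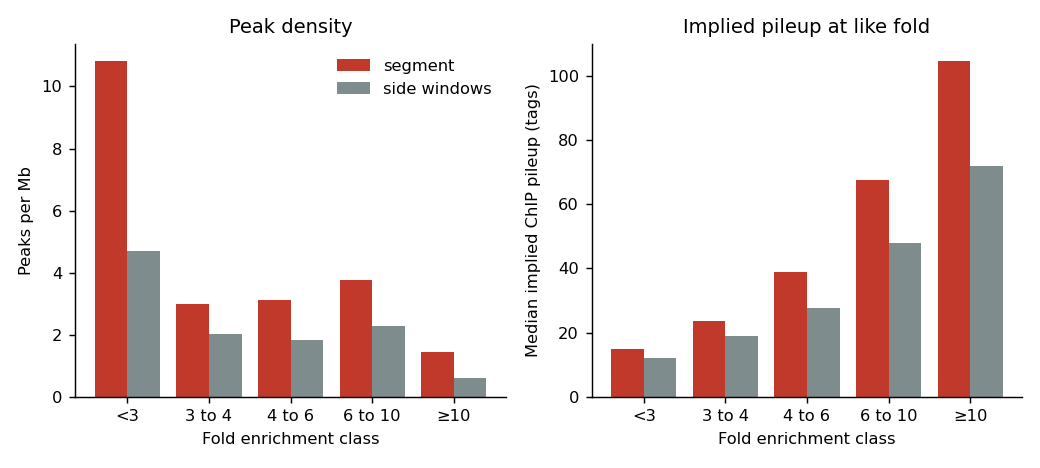
For 5 classes of fold over input (horizontal axis), the left panel gives peaks per Mb and the right panel the median implied ChIP pileup in stacked tags, in the segment (red) and in both side windows together (grey). The segment has more peaks per Mb in each class. The pileups, from 14.9 against 12.2 below a fold of 3 to 105 against 71.9 at 10 or more, are built from the level that set the borders and show that choice.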

How the data were processed

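The authors made the peak list with MACS2 2.1.0.20140616 (broad mode, H3K27ac against input, 1 tag kept per position), per the file headers. Of the tags, 54357332 of 62626946 (ChIP) and 71932640 of 74212738 (input) were kept. Bowtie2 and hg19 are named in the submitters' processing notes, with no version or alignment settings in the sources used here. The deposited fold is a ratio of ChIP pileup to local control, and the deposited -log10 p-value and q-value are the caller's own, 1 per peak. All 52203 values of the deposited pileup column were below 0, and it was left out.

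The level and pileup of a peak were solved from fold (1 added to pileup and control) and the Poisson p. The lowest level, 4.11, equals the background implied by the headers. Levels above 20 (1 member, 200 peaks) were set aside. How MACS2 combines positions within a broad peak is not stated, so level and pileup are approximate. Keeping 1 tag per position caps strong peaks. Domains joined peaks within 12500 bp. Bands and chromosome lengths came from the hg19 table of circlize 0.4.16. Domain joining and level solving were tested on simulated data. The levels were simulated with the formula used to solve them, and the domains with gaps far from 12500 bp. These tests check the code and cannot show how well the level matches control coverage.

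Loci named are the 10 strongest and 10 widest members, the 8 highest domains, the 3 longest gaps and 2 peaks on each side of both borders. Others are the peaks or bins that a count or range points to. Members, lists and measures were chosen with earlier results of these data known. Alternatives were stricter thresholds, merging, other stitching and ranking, and other side windows. Tools were Python 3.11.15, pandas 2.3.3, numpy 2.4.6, matplotlib 3.10.9 and scipy 1.17.1.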

Additional observations from a re-analysis of the deposited data

How the results depend on the processing

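Thresholds on peak strength moved the values of the segment, since the weak peaks they remove are the most numerous. With a -log10 q of at least 5, a -log10 q of at least 10 and a fold of at least 4 in turn, the density became 10.7, 7.96 and 8.32 per Mb, the median width 3295, 3935 and 3709 bp, the median fold 5.72, 7.05 and 6.94, and the covered share 5.43%, 4.72% and 4.80%. Merging peaks within 1000 bp gave a covered share of 6.72%. The density ratio to the side windows stayed between 1.77 and 2.05 over its 6 alternatives, of which the one with windows begun at the nearest peak was chosen after seeing the data. The ratio of median fold, 0.870, turned to 1.16 with implied pileup and to 1.06 with a fold of at least 4. The ratio of median width, 0.852, turned to 1.13 with a -log10 q of at least 5 and to 1.06 with a fold of at least 4. Neither ratio therefore gives a direction that holds, and the pileup is built from the level that set the borders. The large domains of the segment numbered 8 to 13 over 5 alternatives, and the domains, 170 as reported, 106 with a -log10 q of at least 10, 250 when stitched within 5000 bp and 133 within 20000 bp. The domain at 139013125 came first in the segment under each of the 5, with rank 19 when stitched within 5000 bp, 11 with a -log10 q of at least 10 and 112 by width. The median level was 7.76 with a fold of at least 4, where it was 5.12 beside the segment. Causes were not tested beyond the removal of weak peaks. No paired analysis was possible because each group consists of 1 library.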
